A study of Homo sapiens with 2 samples.

Results

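The spliceosomal RNAs U1, U2 and U5 have left many copies in the human genome that are annotated as pseudogenes, and 10 of those that held peaks in a map of SF3B1 contacts are described here. The copies are RNU1-11P, RNU1-83P, RNU1-67P, RNU1-63P and RNU1-19P of the U1 family, RNU2-13P, RNU2-6P, RNU2-4P and RNU2-30P of the U2 family, and RNU5E-6P of the U5 family. An interval was counted for a copy when its midpoint lay in the RefSeq span of that copy, whatever gene the deposited list gave for it. By this rule the 10 copies held 11 of the 1406 distinct intervals, and all 10 held at least 1. The copies were chosen by the presence and height of their peaks in this same list, so the counts and heights below are descriptions and no test was made on them.

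The map came from HITS-CLIP, in which RNA bound to a protein is fixed to it by ultraviolet light, recovered with an antibody and sequenced as short tags. There was 1 group, SF3B1 HITS-CLIP in MDA-231-LM2, a subline of the breast cancer line MDA-MB-231 that was selected for metastasis to the lung, with 2 biological replicates and no input or control library. The antibody label names SF3B1, whereas the extract protocol names SNRBP2, and SF3B1 was taken as the target. The authors deposited 1 list of peaks made from the pooled tags of both replicates, so no value below has a replicate error and the depth of each library is unknown. Transcript levels were not used, so tags from a strongly bound copy cannot be told apart from tags of an abundant one.

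U1 and U2 act at the start of splicing: U1 pairs with the 5′ splice site, and U2 pairs with the branch point, where the SF3b complex with its largest subunit SF3B1 sits on the duplex. U5 joins later, as part of the tri-snRNP with U4 and U6, and its conserved loop holds the exons that are to be joined. Copies of these RNAs arose in part by reverse transcription and insertion elsewhere in the genome, often inside introns of other genes, and most are not known to be transcribed from promoters of their own. A copy inside a gene can be read through as part of the host's pre-mRNA. A copy also shares much of its sequence with the active genes, so a short tag from an active snRNA can be placed on a copy, and the assignment of all tags below is uncertain for that reason. The files do not hold the tags, so how far this occurred was not tested.

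Peak height, the number of pooled tags at the top of the peak, ranged from 4 to 83 tags over the 11 intervals, with a median of 25. Over the whole list the median was 7 tags, the quartiles were 6 and 11, and heights ran between 3 and 248. Of the 11 intervals, 8 were above that list median, 1 was at it and 2 were below it, whereas 46.4% of all 1406 intervals were above it. Since heights helped to choose the copies, nothing is read from that difference. The 11 intervals made up 0.782% of the list's intervals and 1.95% of its summed heights. Their widths, set by the authors at a fixed part of the peak height, were 42 to 44 nt in 10 intervals and 59 nt in RNU2-6P, beside a list median of 43 nt. All 11 intervals lay wholly inside the annotated copy.

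**Figure D1:**
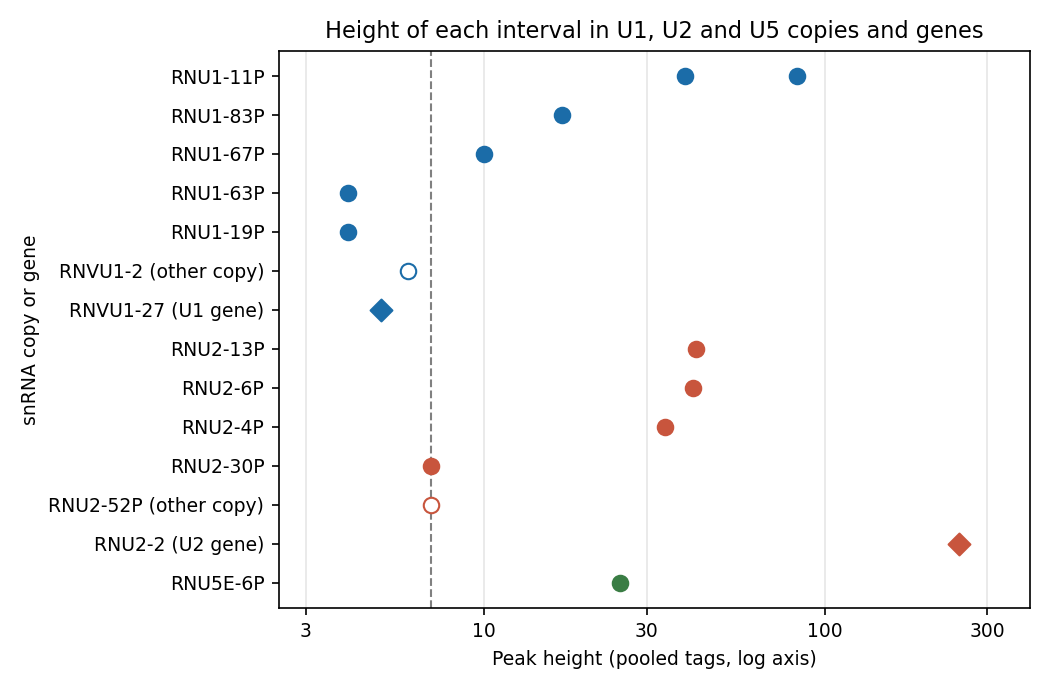
Height of each interval in pooled tags (x axis, logarithmic) for the copies and genes named on the y axis; filled circles are the 10 copies, open circles the 2 other U1 and U2 copies with an interval, diamonds the snRNA genes, and the dashed line is the list median of 7 tags. RNU1-11P lies above RNVU1-27, the only U1 gene with an interval and itself below the list median (83 and 39 against 5 tags). All U2 copies lie below the U2 gene RNU2-2 (at most 42 against 248 tags). The snRNA gene LOC124904146 (10 tags) is not drawn.

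Among the U1 copies, RNU1-11P stood far above the other 4. Its span of 216 nt on chromosome 6, 13214040 to 13214255 (hg38 in the list, GRCh38.p14 in RefSeq), held 2 intervals on the plus strand. The taller, at 13214062 to 13214104, reached 83 tags and ranked 16 of 1406. The other, at 13214161 to 13214203, reached 39 tags and ranked 41. The 2 starts lay 99 nt apart, and the taller peak was 2.13 times the other. RNU1-11P is thus the one copy of the 10 with more than 1 interval, and its 2 heights sum to 122 of the 157 tags of all U1 intervals.

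The remaining U1 copies carried between 4 and 17 tags. RNU1-83P (chromosome 12, 62850739 to 62850901) held 17 tags on the minus strand, at 62850854 to 62850896. RNU1-67P (chromosome X, 119423742 to 119423905) held 10 tags on the plus strand, at 119423814 to 119423857. RNU1-63P (chromosome 4, 67429592 to 67429754) held 4 tags on the minus strand, at 67429640 to 67429681. RNU1-19P (chromosome 10, 86889569 to 86889733) also held 4 tags, on the plus strand at 86889675 to 86889717. The last pair lay close to the bottom of the list: 99.5% of all intervals were at least as high.

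Of the 4 U2 copies chosen, 3 held between 34 and 42 tags. RNU2-13P (chromosome 2, 11561194 to 11561306) held 42 tags on the plus strand, at 11561203 to 11561245. RNU2-6P (chromosome 13, 46374404 to 46374590) held 41 tags on the minus strand, at 46374503 to 46374561. RNU2-4P (chromosome 17, 43387229 to 43387417) held 34 tags on the minus strand, at 43387339 to 43387381. These peaks ranked 37, 38 and 46 of 1406. RNU2-30P (chromosome 1, 52754322 to 52754462) was lower, at the list median with 7 tags, on the plus strand at 52754338 to 52754379. RNU2-52P, the other U2 copy with an interval, also held 7 tags. The median over the 4 U2 intervals was 37.5 tags, or 34 with RNU2-52P, and that over the 6 U1 intervals 13.5 tags, but with so few copies in each family this says little of the families.

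A single U5 copy held an interval. RNU5E-6P (chromosome 1, 44819883 to 44819997), a copy of the U5E variant, held 25 tags on the minus strand, at 44819936 to 44819977, and ranked 70 of 1406. It lay between the 3 tall U2 copies and RNU1-83P in height.

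Set against snRNA genes with an interval, the tallest U1 copy was above the U1 gene RNVU1-27, whereas the tallest U2 copy was below the U2 gene RNU2-2. In the U1 family, RNU1-11P with 83 tags was 16.6 times as tall as the interval of RNVU1-27, which had 5 tags. RNVU1-27, by its symbol a variant U1 gene, was the only one of 21 annotated U1 snRNA genes with an interval. Its height was near the bottom of the list, where 93.0% of intervals were at least as high. RNU1-1 had no interval, so the ratio does not set RNU1-11P against U1 as a whole. RNU1-83P and RNU1-67P were 3.4 and 2 times as tall as RNVU1-27, and RNU1-63P and RNU1-19P 0.8 times. In the U2 family, RNU2-13P with 42 tags was 0.169 times as tall as RNU2-2, the U2 gene with the tallest interval of the list at 248 tags. RNU2-6P, RNU2-4P and RNU2-30P were 0.165, 0.137 and 0.0282 times as tall as RNU2-2. The U5 copy had no counterpart, since 0 of 5 annotated U5 genes held an interval. The file's name speaks of unique tags, without saying whether this means tags with 1 place in the genome or tags without duplicates. Tags that match several identical genes may have been lost. Missing intervals at U1, U2 or U5 genes therefore do not show that these RNAs were without tags.

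LOC124904146, an snRNA gene of 192 nt, held a further interval of 10 tags on chromosome 17, at 43273246 to 43273288. The deposited list gives that interval under the U2 gene RNU2-1 and under CCDC200, although it lies in neither span. It is not one of the copies. The symbol of LOC124904146 does not give its family, but its length is near the 188 to 191 nt of the U2 genes. Its 10 tags were fewer than those of RNU2-13P (42), RNU2-6P (41) and RNU2-4P (34). If it is a U2 gene, the place of the copies below RNU2-2 does not hold for every U2 gene with an interval. RNU2-4P, on the same chromosome and strand, had this interval as its nearest neighbour, 114051 nt away.

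Where the intervals lay within the copies was not part of how these were chosen. Bases were counted from 1 at the upstream end of the span, along the strand of the interval, since the table used here gives no strand for the copies. In RNU2-6P the interval covered bases 30 to 88 of 187, and in RNU2-4P bases 37 to 79 of 189. Both spans are within 5 nt of the 188 nt of RNU2-1. Their bases are set beside those of the gene RNU2-2, where the interval covered bases 95 to 140 of 191. A like length does not show that the bases correspond, and the sense of the copies is unknown. In these coordinates the intervals of RNU2-6P and RNU2-4P did not overlap that of RNU2-2. Counted from the other end of the copies, this need not hold. They did overlap that of the snRNA gene LOC124904146, at bases 5 to 47 of its 192 nt. In the shorter U2 copies, RNU2-13P with 113 nt and RNU2-30P with 141 nt, the intervals covered bases 10 to 52 and 17 to 58, but how these truncated spans line up with the full RNA was not determined.

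RNU2-52P, a U2 copy of 187 nt on chromosome 20 that is not among the 10, held its interval of 7 tags at bases 24 to 66, which also overlaps the bases of LOC124904146. Together, RNU2-6P, RNU2-4P and RNU2-52P shared bases 37 to 66, a stretch of 30 nt, and their intervals ended at bases 88, 79 and 66, before the first base, 95, of that in RNU2-2. As background, the part of U2 that pairs with the branch point lies toward its 5′ end. No sequence of the copies was used here, so the bases are distances in the annotated spans and not an alignment, and they hold only if tags run along the copy in the sense of the RNA.

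**Figure D2:**
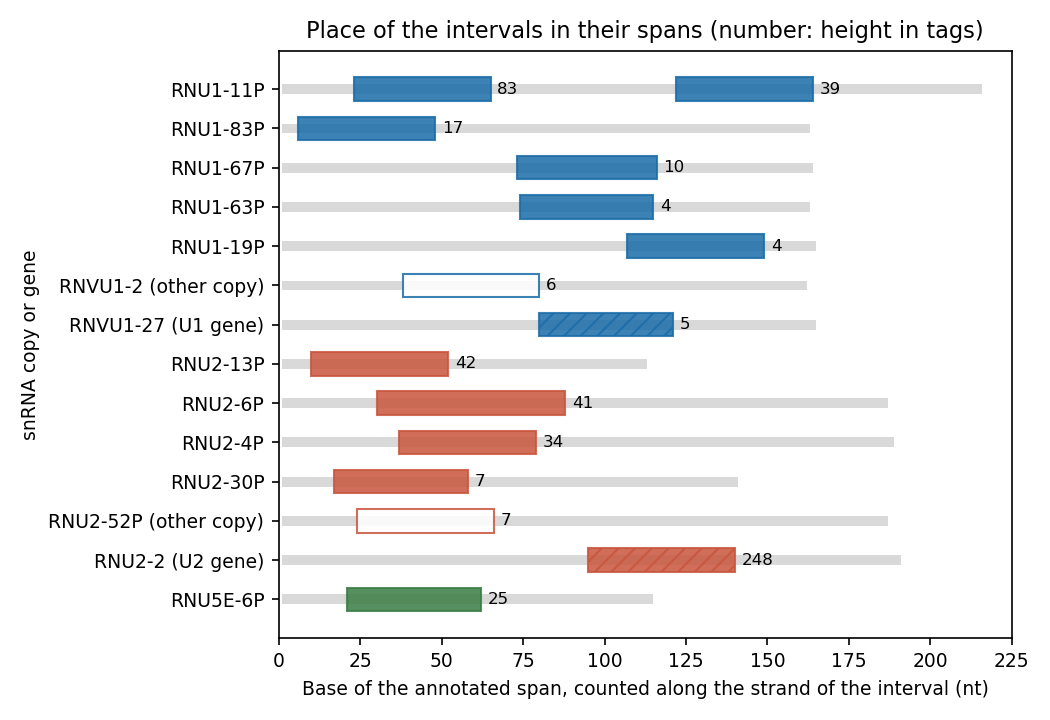
Place of each interval (coloured bar) in the annotated span of its copy or gene (grey bar), with bases counted along the strand of the interval on the x axis and the height in tags beside each bar; hatched bars are snRNA genes and open bars the 2 other copies. In RNU2-6P, RNU2-4P and RNU2-52P the intervals lie between bases 24 and 88, and in the gene RNU2-2 between bases 95 and 140. The snRNA gene LOC124904146, whose interval at bases 5 to 47 overlaps those of these copies, is not drawn.

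In the U1 copies the intervals were spread over nearly the whole span. RNU1-67P and RNU1-63P, with spans of 164 and 163 nt, had intervals at bases 73 to 116 and 74 to 115, nearly the same place. The gene RNVU1-27, with 165 nt, had its interval at bases 80 to 121, and the 3 intervals shared 36 nt, from base 80 to base 115. In RNU1-83P the interval lay close to the upstream end, at bases 6 to 48, and in RNU1-19P closer to the other end, at bases 107 to 149. The 2 intervals of RNU1-11P covered bases 23 to 65 and 122 to 164 of its 216 nt; RNU1-1 has 164 nt. In RNU5E-6P the interval covered bases 21 to 62 of 115, against 121 nt in the gene RNU5E-1.

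Span lengths of the copies with an interval are set beside those of other copies of the family, but the copies are too few to compare them. Of 5 U1 copies with an interval, 4 were within 5 nt of RNU1-1, all but RNU1-11P with 216 nt, as were 64 of 110 U1 copies without one (58.2%). Of 5 U2 copies with an interval, RNU2-52P included, 3 were within 5 nt of RNU2-1, as were 32 of 63 without one (50.8%). The U5 copy RNU5E-6P was not within 5 nt of RNU5E-1, whereas 10 of 28 U5 copies without an interval were (35.7%). Spans near the length of the gene thus occurred among U1 and U2 copies with and without a listed interval. Whether all copies without one were searched is not known, so what an interval requires is not read from this. RNU2-13P, the shortest of the U2 copies with an interval, was among the tallest, but heights helped to choose it.

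The deposited list gave none of the 11 intervals under the copy itself. Each was listed under 1 gene, 10 hosts in all, of which 8 are protein-coding and 2 are long noncoding RNAs. RNU1-11P lay in PHACTR1, which encodes a regulator of protein phosphatase 1 and actin, 87.1% of the way along its 571071 nt. RNU1-83P lay in PPM1H, a protein phosphatase gene, RNU1-67P in SLC25A43, of the mitochondrial carrier family, and RNU1-19P in BMPR1A, a type I receptor for bone morphogenetic proteins. RNU2-13P lay in GREB1, a gene known for its induction by oestrogen, RNU2-6P in RUBCNL, an autophagy gene, and RNU2-30P in ZYG11B, which encodes a substrate receptor of a ubiquitin ligase. RNU2-4P lay in the long noncoding RNA LINC00910, 1517 nt from its start. RNU1-63P was listed under the long noncoding RNA LOC101927237, but its interval lay 7640 nt outside the RefSeq span of that gene. The span of a second noncoding RNA, LOC105369795, also covered RNU1-83P.

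In the 9 hosts whose span held the copy, no interval lay outside it. With LOC101927237 counted too, 0 of 10 hosts held an interval elsewhere in the span, and 0 had another interval under their gene number. Among the 1097 of 20056 protein-coding genes whose span held an interval on either strand (5.47%), 193 held more than 1 (17.6%). The copies took up between 0.0378% (RNU1-11P in PHACTR1) and 0.992% (RNU2-4P in LINC00910) of the spans that held them. The nearest interval outside the copy lay from 43401 nt (RNU5E-6P) to 5200219 nt (the lower interval of RNU1-11P) away on the chromosome. Most genes of the list with an interval hold 1, and the absence of others in these hosts was not tested.

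The strand of the intervals was that of the host wherever the host's strand was known. It was known for 8 of the 10 hosts, GREB1 not among them, and the interval lay on it in all 8. All 1286 rows of the list whose gene has a known strand also lay on that strand (100%). A match that every such row of the list shows says nothing of whether the tags came from the host's transcript. The plus strand held 6 of the 11 intervals and the minus strand 5.

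The heights were many times those expected for the hosts, as heights in the list were in general for their genes. The list gives, for each gene, an expected height, which was 0.00 for PPM1H, 0.01 for PHACTR1, SLC25A43, LOC101927237, BMPR1A, GREB1 and ZYG11B, 0.02 for RUBCNL and 0.08 for LINC00910. The median over all listed genes was 0.03, and 464 of 1191 genes (39.0%) had at most 0.02, as had 8 of the 10 hosts. The ratio of height to expected height ranged from 400 to 8300 over the 10 intervals with an expected height above 0, with a median of 850. Over the list the median ratio was 167. A low expected height alone raises the ratio: the U6 copy RNU6-1331P, with 5 tags over 0.01, had a ratio of 500. Heights also helped to choose the copies, and only significant peaks were listed, so nothing is read from these ratios. The interval of RNU2-2 had a ratio of 172, to the 1.44 tags expected for WDR74. Expected heights are deposited to 2 decimals, so a value of 0.01 may stand for anything from 0.005 to 0.015. For the taller interval of RNU1-11P this allows ratios from 5533 to 16600, and for RNU2-13P from 2800 to 8400. For RNU1-83P the 17 tags give a ratio of at least 3400. The p-value that the authors give for the peak was at 1e-100, the lowest value listed, for 5 of the 11 intervals and for 19.8% of all intervals. Nothing is read from this share, since these p-values come from the same list and peaks that chose the copies.

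Beside other intervals with the same expected height, the tall copies stood at the top and the low ones at the bottom. Heights helped to choose the copies, so these places are descriptions only. At 0.01 tags the list held 236 intervals, of which 7 lay in the copies and 229 elsewhere. Those 229 had a median of 5 tags and a range of 4 to 19. The 83 and 39 tags of RNU1-11P and the 42 tags of RNU2-13P were above all 229. The 10 tags of RNU1-67P were matched or exceeded by 15 of them, the 7 tags of RNU2-30P by 58, and the 4 tags of RNU1-63P and RNU1-19P by all 229. RNU2-6P with 41 tags was exceeded by 1 of 173 other intervals at 0.02 tags, RNU5E-6P with 25 tags was equalled by 1 of 66 at 0.05, and RNU2-4P with 34 tags was above all 55 at 0.08, where the highest had 26. RNU1-83P with 17 tags was matched or exceeded by 2 of 76 at 0.00.

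**Figure D3:**
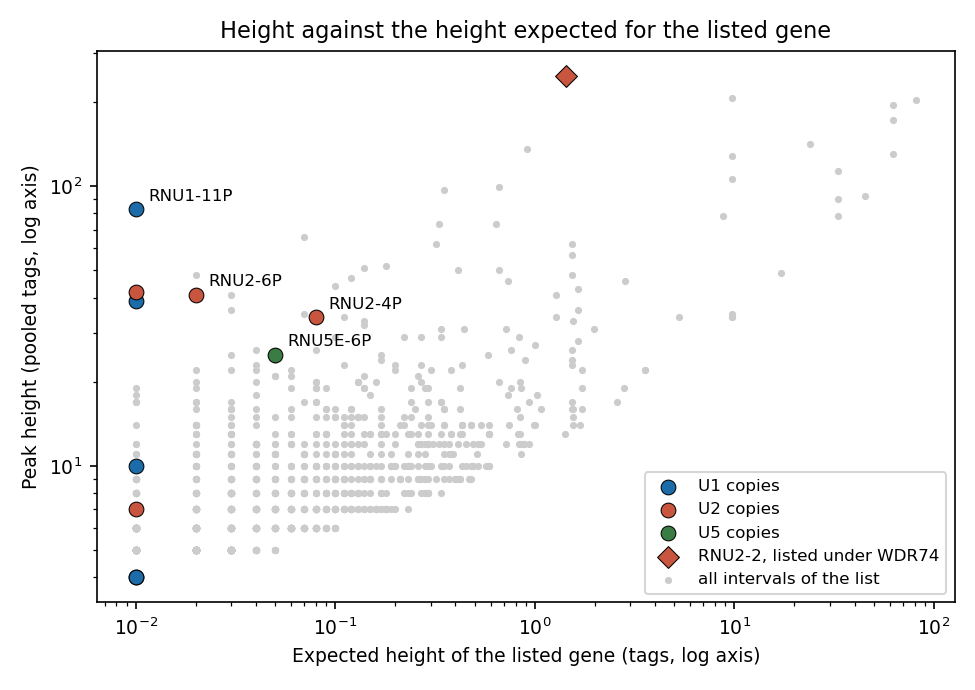
Height of each interval (y axis, pooled tags, logarithmic) against the expected height of the gene it is listed under (x axis, tags, logarithmic), for the copies in colour, the gene RNU2-2 as a diamond and all intervals of the list in grey; the 77 intervals with an expected height of 0.00, RNU1-83P among them, cannot be drawn on this axis. At an expected height of 0.01, RNU1-11P (83 and 39 tags) and RNU2-13P (42 tags) lie above all other intervals, which reach 19 tags.

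Across the annotated copies of each family, few held an interval. Of 212 U1, U2 and U5 pseudogenes 11 did (5.19%), which are the 10 copies and RNU2-52P. That share is close to the 5.47% of protein-coding genes with an interval (1097 of 20056), although the spans differ in length. By family, 5 of 115 U1 copies held one (4.35%, exact Clopper-Pearson 95% interval 1.43 to 9.85), 5 of 68 U2 copies (7.35%, 2.43 to 16.3) and 1 of 29 U5 copies (3.45%, 0.0873 to 17.8). Of U4, U6 and U7 pseudogenes together, 10 of 1534 held one (0.652%). All of these were U6 copies, 10 of 1277 (0.783%, 0.376 to 1.44), whereas 0 of 89 U4 and 0 of 168 U7 copies had an interval. These confidence intervals treat copies as independent and cover counting error only. Copies of different families differ in number and in likeness to each other, which can affect how many tags are placed on them. Differences between families were not tested. RNVU1-2, which RefSeq also gives as a pseudogene and whose symbol is that of the variant U1 genes, held 6 tags on chromosome 1, and the list gives it under LINC01138.

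**Figure D4:**
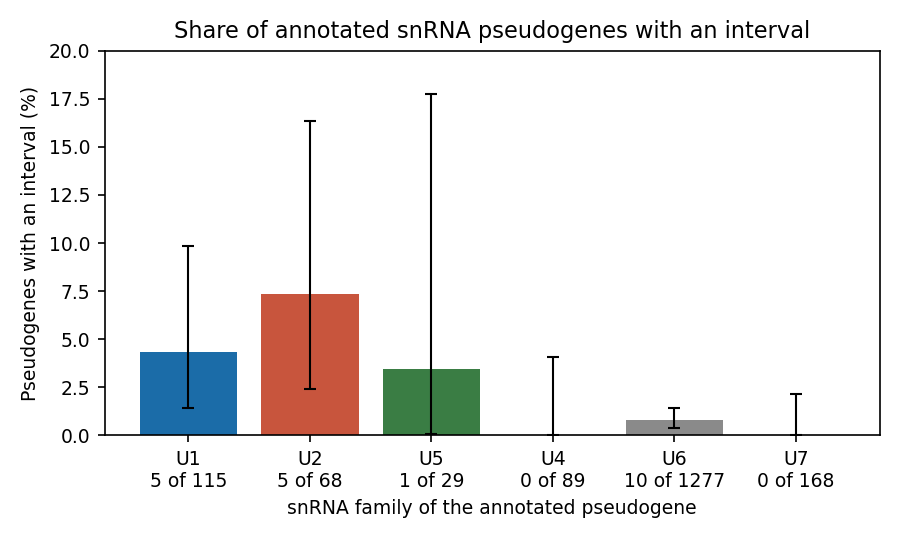
Share of annotated pseudogenes that held an interval (y axis, percent) for 6 snRNA families (x axis, with the number of copies); error bars are exact Clopper-Pearson 95% intervals for counting error only. The U2 family has the highest share (7.35%), U6 has 0.783%, and U4 and U7 have none.

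Of the 212 copies, 118 (55.7%) lay inside a longer gene that is neither a pseudogene nor a small RNA, and 10 of these 118 held an interval (8.47%), against 1 of the others, RNU1-63P. The list gives each peak under a gene of the authors' annotation, and whether copies outside such genes were searched is not given in the sources used here. Intervals of 10 U6 copies had 3 to 11 tags with a median of 7.5, and 5 of them were above the list median. Of the 12 intervals in U1, U2 and U5 copies, RNU2-52P included, 7 were taller than the tallest of the U6 copies, RNU6-43P, with 11 tags in SUFU (here and below, the gene it is listed under). RNVU1-2, with 6 tags, is not among the 12. Over the whole list, 25.5% of the 1406 intervals were at least as high as RNU6-43P. Heights helped to choose the 10 copies, so nothing is read from the difference to the U6 copies. The other U6 copies with an interval were RNU6-1099P in AKR7A2 and RNU6-39P in CCDC102B with 10 tags each, RNU6-761P in CCND3 with 9, RNU6-28P in EIF4ENIF1 with 8, RNU6-20P in KIFC3 with 7, RNU6-1331P in RGS20 and RNU6-116P in CDH20 with 5 each, and RNU6-12P in COLEC10 and RNU6-16P in GRM5 with 3 each.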

How the data were processed

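HITS-CLIP tags of 2 biological replicates were pooled by the authors. The file's name says that unique tags and significant peaks were kept and that interval bounds follow from the peak's height. What made a tag unique is not given there. The submitters' processing notes name BWA 0.7.17, cutadapt 2.3 and the hg38 build; the peak caller, significance threshold and gene annotation are not given in the sources used here. In the list, the deposited signal is the peak height in pooled tags, not normalized, and the deposited text field holds the gene number, expected height and p-value. Depth per library is unknown.

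Rows with the same position and strand were counted once (1587 rows, 1406 intervals). Spans came from RefSeq GRCh38.p14, where 1190 of 1191 gene numbers matched, and host strands from its promoter table. Copies were counted by symbol and the pseudogene biotype, as placed by midpoint. The copies, families and comparisons were chosen with earlier results of these data known, so no test was made. Named genes are the 10 copies, their hosts (1 is not reported here), and other U1, U2, U4, U5 and U6 copies or genes with an interval. Comparisons with WDR74, LOC124904146 and CCDC200 were added after their values were seen. The joins were tested on simulated data. Alternatives were overlap of 1 nt, whole intervals, taller intervals only, merging within 50 nt, 1 interval per copy, the mean, other host rules and added copies. Computations used pandas 2.3.3, numpy 2.4.6 and scipy 1.17.1 under Python 3.11.15, and matplotlib 3.10.9 drew the plots.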

Additional observations from a re-analysis of the deposited data

How the results depend on the processing

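The 11 intervals stayed 11 with any overlap of 1 nt, with whole intervals and with merging within 50 nt, and 8 were above the median height of the list. Their median height of 25 tags was 21 with only the tallest interval of each copy, 17 with RNU2-52P and RNVU1-2 added, and 27.8 as a mean. The median ratio to the expected height, 850, was 700 with the tallest interval of each copy, 567 with expected heights 0.005 higher and 1700 with them 0.005 lower; the rounding alone thus moves it by up to 2 times. The number of U1, U2 and U5 copies with an interval, 11, was 7 among intervals above the list median and 12 with variant U1 pseudogenes. The number of hosts with another interval was 0 under both alternatives. The settings with RNU2-52P, the variant U1 pseudogenes and the rounding were chosen after seeing the data. Leaving out a replicate was not run, since the list pools both. No paired analysis was possible because there is 1 group and its replicates are pooled.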

Other observations

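The deposited p-values of the copies did not follow their heights. RNU2-13P, with 42 tags over an expected height of 0.01, is listed at 5.6e-09, whereas RNU1-67P, with 10 tags over the same expected height, is listed at 1e-100, the lowest value in the list. RNU2-30P with 7 tags is at 3.52e-09, RNU2-4P with 34 tags at 6.65e-10 and RNU5E-6P with 25 tags at 8.11e-10. RNU1-63P and RNU1-19P, with 4 tags each, are at 0.0195 and 0.0148. Among 237 intervals listed under any gene with an expected height of 0.01, 36 are at 1e-100, the lowest of these with 7 tags, and 10 taller than 7 tags have a higher p-value. The cause was not tested, and the p-values were not used to rank the copies.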
